A study of Mus musculus with 16 samples.

Results

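Sperm-egg fusion and egg activation genes were followed at the transcript level in mouse oocytes with and without deletion of Psma7. The gene encodes PSMA7, an alpha subunit of the 20S proteasome core. The study reports that some PSMA7 protein remains after the deletion, so the loss of protein is partial. The 8 genes were chosen by name and by their role in the egg, not by a measured value, but with earlier results of these data known. They are Cd9, Izumo1r, Cd81, Itpr1, Atp2a2, Trpm7, Cacna1h and Camk2g. They are 8 of 28618 entries in the expression table, each with 1 entry, and Izumo1r is also known as Folr4. The 16 libraries came from germinal vesicle (GV) oocytes, arrested in the first meiotic prophase, and metaphase II (MII) eggs of wildtype (WT) and Psma7 cKO females, 4 libraries to each of the 4 groups. The cKO genotype is Zp3-Cre; Psma7 flox/flox, in which the Zp3 promoter drives Cre in growing oocytes, and the study's methods give C57BL/6 as the background of the floxed line. No WT library is labelled as carrying Cre or the floxed allele, so effects of these alleles themselves cannot be told apart from loss of Psma7. All females were 3 to 4 weeks old and received 5 IU PMSG. GV oocytes were taken 44 h later, whereas MII eggs were taken from oviducts 14 to 16 h after hCG and freed of cumulus cells with 0.3% hyaluronidase. Per the labels, each library is a pool of 5 oocytes, and the labels do not say whether the pools came from separate females, so the p-values measure the spread between pools.

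Fertilization begins when a sperm binds and fuses with the egg plasma membrane. IZUMO1R (JUNO), a GPI-anchored protein, is the egg receptor for sperm IZUMO1, and the tetraspanins CD9 and CD81 act in fusion itself. The sperm then triggers repeated calcium waves. ITPR1 is the IP3 receptor that releases calcium from the endoplasmic reticulum, ATP2A2 (SERCA2) pumps it back, and TRPM7 and CACNA1H (the T-type channel CaV3.2) admit calcium from outside to refill the store. CAMK2G reads the calcium signal and releases the egg from metaphase II arrest. GV oocytes hold a large store of maternal mRNA, part of which is normally degraded during maturation while transcription is silent.

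Cd9 lies on the minus strand of chromosome 6 at chr6:125460266-125494791 and Izumo1r on the minus strand of chromosome 9 at chr9:14885814-14903949 (GRCm38, GENCODE M21). Their promoters, from 250 bases before to 50 bases after the RefSeq start on GRCm38.p6, are printed because these are the 2 genes that moved together in the comparisons below. Capitals mark E-boxes, searched as CANNTG, which reads alike on both strands.
Cd9 promoter, chr6:125494711-125495010, minus strand: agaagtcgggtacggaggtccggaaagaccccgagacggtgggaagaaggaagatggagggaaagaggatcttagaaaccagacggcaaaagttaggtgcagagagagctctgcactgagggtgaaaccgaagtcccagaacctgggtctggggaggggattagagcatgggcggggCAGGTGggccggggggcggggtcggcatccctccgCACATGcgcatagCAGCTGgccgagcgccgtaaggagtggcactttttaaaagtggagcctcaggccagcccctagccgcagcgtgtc
Izumo1r promoter, chr9:14903718-14904017, minus strand: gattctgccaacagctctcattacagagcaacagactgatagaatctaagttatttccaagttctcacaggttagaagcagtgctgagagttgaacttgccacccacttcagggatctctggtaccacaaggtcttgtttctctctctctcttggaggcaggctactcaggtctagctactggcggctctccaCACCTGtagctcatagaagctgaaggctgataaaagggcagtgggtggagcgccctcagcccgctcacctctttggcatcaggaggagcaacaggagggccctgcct
The Cd9 window holds 3 E-boxes, at -73, -38 and -25 from the start, and the Izumo1r window holds 1, at -57. An E-box occurs in 72.3% of all 32851 RefSeq promoters, so its presence here is common. Neither window holds the TATA box TATAAA, the homeodomain core TAATTG or the CCAAT box, searched as CCAAT, on either strand, which occur in 13.6%, 8.0% and 37.4% of all promoters. Promoter sequences matched 4 of the 8 genes, the other 2 being Trpm7 and Cd81.

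The mRNA ends were also searched, since oocytes lengthen or shorten poly(A) tails through elements close to the end and the libraries were primed on poly(A). The longest GENCODE transcript with a complete end was used for each gene. Printed are 30 bases around the element of Atp2a2, the 1 gene of the 8 with a cytoplasmic polyadenylation element (TTTTAT, with the variant TTTTAAT counted too, in the last 100 bases), and around the polyadenylation signal of Cd9 and Izumo1r, with the element in capitals and T for U.
Atp2a2 element: atgtctaatgtaTTTTATtgtaacagacat
Cd9 signal: aatttgatacatAATAAAagattataacag
Izumo1r signal: catggtaccttcAATAAAaggctaggaaac
The element starts 90 bases from the annotated end of Atp2a2 and occurs in 19.9% of 8748 genes measured in the maturation comparison. A polyadenylation signal (AATAAA, with the variant ATTAAA counted too, in the last 40 bases) was found in all 8 genes, against 77.7% of those 8748. A match is a sequence description only.

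The libraries held an estimated 10.5 to 15.7 M fragments each. The targeted gene was checked first. Psma7 was at 142 to 201 FPKM in WT GV oocytes and 11.1 to 18.0 FPKM in cKO GV oocytes, 8.83% of WT (limma, log2 fold change -3.51, adjusted p = 8.98e-07). In eggs the WT libraries held 97.7 to 172 FPKM, and the cKO libraries held 13.6, 50.3, 35.0 and 59.9 FPKM (log2 fold change -1.83, adjusted p = 0.0359), so the cKO libraries were lower in each stage but uneven among eggs. The egg call was lost without any 1 of the 4 WT MII libraries or cKO MII replicate 3, at adjusted p up to 0.101. Within the cKO, Psma7 was called higher in eggs than in GV oocytes (log2 fold change 1.27, limma adjusted p = 0.0188). The cKO eggs held 273% ± 139 of the cKO GV level (SD, n = 4), against 76.4% ± 19.4 in WT. The source of this rise was not tested. The deleted exons were not located here, and fragments from exons that remain would still be counted. All 10 oocyte markers were detected in every group. Their summed level was 8635 to 10990 FPKM in WT eggs and 10490 to 12180 FPKM in cKO eggs, and Figla (log2 fold change 1.57, limma adjusted p = 0.0311) and Zp3 (1.20, adjusted p = 0.0203) were higher in cKO eggs. Their part in the results below was not tested. Of 15 cumulus and granulosa markers, 3 or 4 reached a mean of 1 FPKM, their sum stayed between 17.7 and 23.9 FPKM in all 16 libraries, and Foxl2, Amh, Amhr2, Ptx3 and Tnfaip6 were listed at 0 in every WT MII library. Cyp19a1, Kitl and Nr5a2 were detected in WT eggs, at 13.5, 5.87 and 2.38 FPKM. In WT maturation Cyp19a1 (log2 fold change 0.76, limma adjusted p = 0.000373) and Kitl (0.59, adjusted p = 0.00769) were called higher and Nr5a2 (-0.61, adjusted p = 0.000644) lower, and their part in the maturation results was not tested. The sum in eggs was 19.8 to 23.9 FPKM in WT and 22.6 to 23.5 FPKM in cKO, which overlap. FPKM is a share of a library, so less RNA per egg and fewer contributing cells cannot be told apart from a changed transcript.

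Levels differed widely among the 8 genes in FPKM, which accounts for transcript length. In WT GV oocytes Cd9 was highest at 233 FPKM ± 46.4 (SD, n = 4), above 99.1% of entries, and Izumo1r followed at 104 FPKM ± 12.3. Atp2a2 (44.5 FPKM ± 6.68) and Camk2g (43.1 FPKM ± 2.77) overlapped each other, followed by Trpm7 (10.8 FPKM ± 0.415) and Itpr1 (4.78 FPKM ± 0.254). Cacna1h (0.524 FPKM ± 0.106) and Cd81 (0.277 FPKM ± 0.154) stayed below 1 FPKM in all 16 libraries. The order changed in WT eggs, where Atp2a2 was highest at 76.8 FPKM ± 7.74, Cd9 had fallen to 47.1 FPKM ± 7.27 and Camk2g stood at 37.0 FPKM ± 5.37, with overlap between the values of Cd9 and Camk2g. In cKO eggs Cd9 was again highest at 135 FPKM ± 32.2, with Atp2a2 at 69.3 FPKM ± 2.21.

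**Figure D1:**
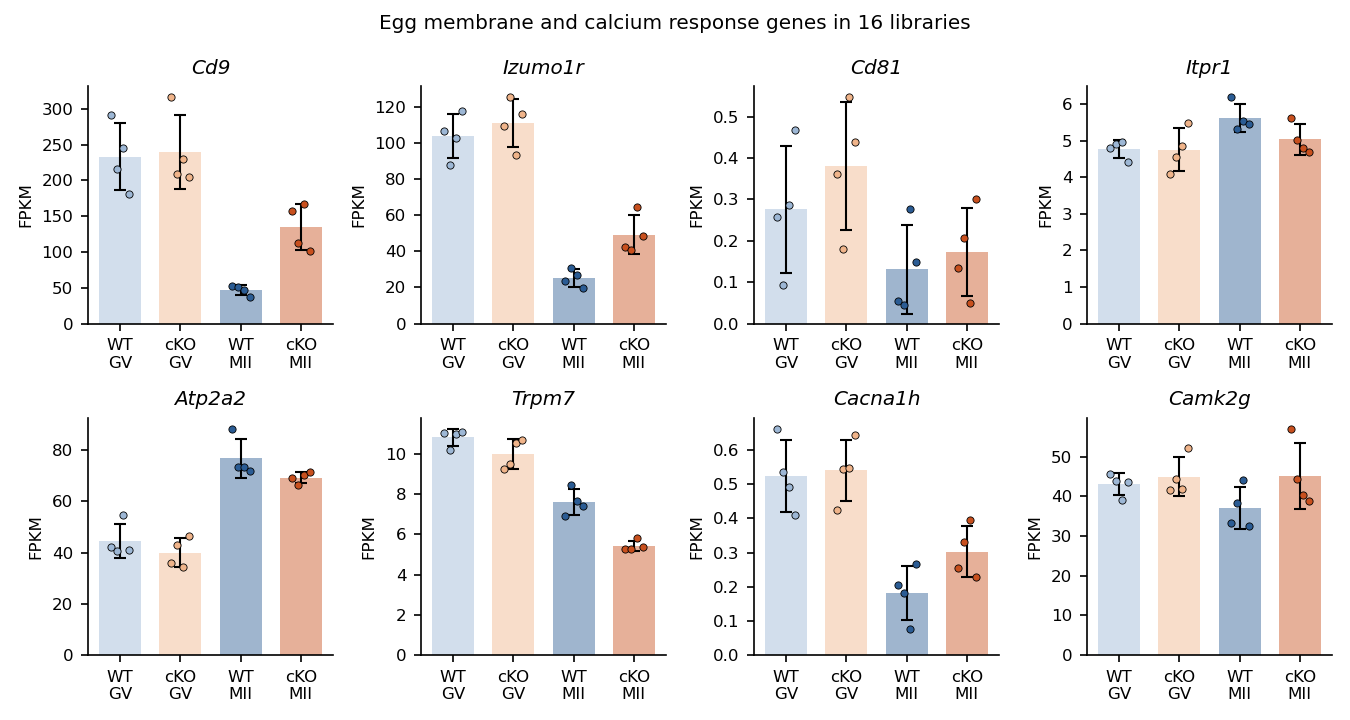
FPKM of each of the 8 genes in the 16 libraries, with bars for the mean of 4 libraries, error bars for the SD and a point per library, each panel on its own axis from 0. Cd9 and Izumo1r are high in GV oocytes of both genotypes and lower in eggs, with all 4 cKO egg libraries above all 4 WT egg libraries. Cd81 and Cacna1h do not reach 1 FPKM.

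The first question was whether loss of Psma7 altered these transcripts before maturation. It left no difference that passed the test in GV oocytes. Of the 6 genes that reached a mean of 1 FPKM, 0 were called at an adjusted p of 0.05 (limma), and 0 had an unadjusted p under 0.05. Across all 11062 transcripts tested, 0.118% were called. Fold changes of the 6 genes lay between -0.15 and 0.10 on the log2 scale, and the 95% interval was -0.33 to 0.41 for Cd9 and -0.16 to 0.35 for Izumo1r.

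In eggs, Cd9 and Izumo1r were higher in the cKO and Trpm7 was lower. Of the 6 genes tested, 2 were called higher, where 6.53% of 9492 transcripts were called higher, and 1 was called lower, where 1.49% were (limma, adjusted p of 0.05). Itpr1, Atp2a2 and Camk2g did not pass the test. Lack of overlap between groups is given below as a description only, without the share of all transcripts that show it. The median log2 fold change was 0.067 for the 6 genes and 0.070 for all transcripts. The study reports that part of the ovulated cKO oocytes did not reach metaphase II, some of them staying at the GV stage. The labels do not say whether such oocytes were kept out of the cKO pools. Their part in the egg differences was not tested.

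Cd9, the tetraspanin needed on the egg surface for fusion, was at 52.7, 51.5, 47.3 and 36.7 FPKM in WT eggs. It was at 158, 112, 167 and 102 FPKM in cKO eggs. The groups did not overlap, and the cKO values spread more widely. The mean was 2.86-fold higher, with a log2 fold change of 1.50 ± 0.18 (SE, 95% interval 1.10 to 1.90, limma adjusted p = 0.0133). In GV oocytes Cd9 was at 291, 216, 246 and 182 FPKM in WT and 316, 209, 230 and 205 FPKM in cKO, overlapping throughout. The log2 fold change between genotypes was larger in eggs than in GV oocytes, with a difference of 1.46 ± 0.27 SE (interaction, limma adjusted p = 0.0184). Cd9 was the 1 gene of the 6 called in that test, where 1.07% of 10615 transcripts were called in the same direction. The interaction passed with each of the 16 libraries left out in turn, at adjusted p from 0.00563 to 0.0463. The egg comparison passed in 7 of 8 such fits and missed without WT MII replicate 3 (log2 fold change 1.51, adjusted p = 0.0528).

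Izumo1r, the sperm receptor, was at 23.3, 31.0, 26.7 and 19.7 FPKM in WT eggs. It was at 42.6, 40.9, 64.6 and 48.6 FPKM in cKO eggs. The groups did not overlap, and cKO MII replicate 3 was the highest. The mean was 1.95-fold higher (log2 fold change 0.96 ± 0.17 SE, 95% interval 0.57 to 1.35, limma adjusted p = 0.0254). This call was lost without WT MII replicate 1 (adjusted p = 0.0813), replicate 3 (0.0578) or replicate 4 (0.0635), with log2 fold changes of 0.93, 1.00 and 0.85. In GV oocytes Izumo1r was at 106, 87.9, 103 and 118 FPKM in WT and 109, 125, 93.6 and 116 FPKM in cKO, with overlap. The genotype effect differed between stages by 0.86 ± 0.22 on the log2 scale, which missed the threshold (interaction, limma adjusted p = 0.0610).

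Trpm7, a channel that lets calcium and magnesium into the egg, was at 6.91, 8.47, 7.67 and 7.43 FPKM in WT eggs. It was at 5.25, 5.28, 5.80 and 5.37 FPKM in cKO eggs. All cKO libraries lay below the lowest WT library, and they were close to each other. The mean was 71.2% of WT (log2 fold change -0.49 ± 0.10 SE, 95% interval -0.72 to -0.26, limma adjusted p = 0.0323). It was the least firm of the 3 calls, since it passed in 2 of 8 fits with a library left out. It was lost without any 1 of the 4 WT MII libraries, at adjusted p of 0.0770, 0.0720, 0.0768 and 0.0711, and without cKO MII replicate 1 (0.0597) or replicate 4 (0.0531), while the log2 fold change stayed between -0.53 and -0.44. In GV oocytes Trpm7 was at 10.2 to 11.1 FPKM in WT and 9.25 to 10.7 FPKM in cKO, with overlap.

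The genes for release, re-uptake and decoding of calcium did not pass the test between genotypes. Itpr1 was at 6.18, 5.33, 5.54 and 5.45 FPKM in WT eggs and 5.63, 5.02, 4.79 and 4.69 FPKM in cKO eggs, which overlap (log2 fold change -0.16, 95% interval -0.41 to 0.08, limma adjusted p = 0.346). Atp2a2 was at 88.3, 73.6, 73.4 and 71.8 FPKM in WT eggs and 69.1, 66.2, 70.4 and 71.3 FPKM in cKO eggs. These values do not overlap, but the gap was narrow and the test was not passed (-0.14, interval -0.32 to 0.03, adjusted p = 0.247). Camk2g was at 33.3, 38.2, 44.1 and 32.4 FPKM in WT eggs and 57.0, 44.3, 40.2 and 38.7 FPKM in cKO eggs, with cKO MII replicate 1 the highest (0.28, interval -0.04 to 0.60, adjusted p = 0.224). The intervals of these 3 genes hold changes of up to 0.60 on the log2 scale, so the data do not show that the genotypes have equal levels.

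**Figure D2:**
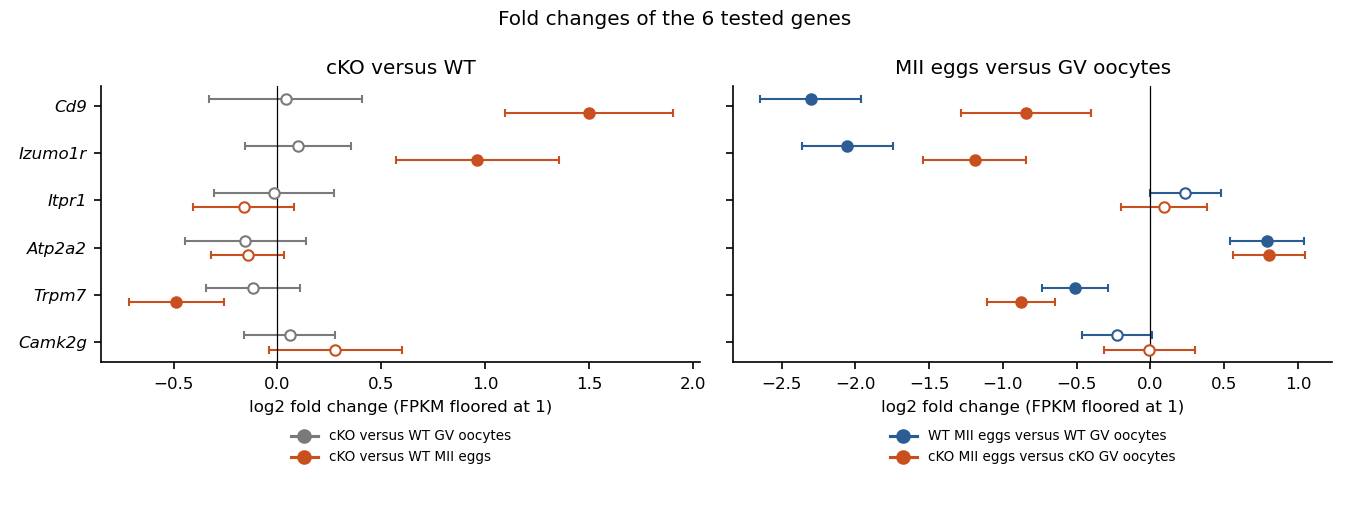
Log2 fold change with 95% limma interval for the 6 genes tested, between genotypes on the left and from GV oocytes to MII eggs on the right. Filled points passed an adjusted p of 0.05 and open points did not. Cd9 and Izumo1r stand to the right of 0 between egg genotypes (1.50 and 0.96), and their fall during maturation is shorter in the cKO.

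The second question was how each transcript changed during maturation within a genotype. In WT, Cd9, Izumo1r and Trpm7 fell and Atp2a2 rose. Of 10475 transcripts tested, 52.4% were called lower and 26.1% higher, so 3 lower and 1 higher of 6 genes is close to the background. In the cKO the same 4 genes were called in the same directions, where 51.0% of 10748 transcripts were called lower and 23.0% higher. The median transcript changed by -0.44 in WT and -0.42 in cKO on the log2 scale. Rescaling each library by the median ratio of expressed transcripts moved those medians to 0.03 and 0.00, and the split of WT calls from 2738 higher and 5486 lower to 4172 and 4181. Changes below are on the deposited scale and are to be read against those medians.

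Cd9 fell by 2.30 on the log2 scale in WT (SE 0.15, limma adjusted p = 1.71e-07) and by 0.84 in cKO (SE 0.19, adjusted p = 0.00329). Izumo1r fell by 2.06 in WT (SE 0.14, adjusted p = 1.98e-07) and by 1.19 in cKO (SE 0.15, adjusted p = 1.03e-04). Relative to the GV mean of the same genotype, Cd9 in eggs stood at 20.2% ± 3.11 in WT and 56.1% ± 13.4 in cKO (SD, n = 4). Izumo1r stood at 24.3% ± 4.65 in WT and 44.3% ± 9.71 in cKO. Egg libraries of the 2 genotypes did not overlap for either gene, the highest WT values being 22.6% for Cd9 and 29.9% for Izumo1r and the lowest cKO values 42.5% and 36.9%.

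The percentages were set beside those of other transcripts that fall in maturation, as a description with no test. The set held 1918 transcripts that averaged at least 10 FPKM in GV oocytes of each genotype and were called lower in WT eggs by at least 2-fold. Their median was 20.2%, 21.9%, 20.8% and 20.6% of the GV level in the 4 WT egg libraries. In cKO eggs the medians were 28.8%, 24.1%, 41.6% and 30.0%, with replicate 3 standing above the others. These transcripts were chosen by their low level in the same WT egg libraries, a choice that favours a cKO to WT ratio above 1. The percentage left was 2.78 times as high in cKO as in WT for Cd9 and 1.83 times for Izumo1r, against a median of 1.47 for the 1918 transcripts. The ratio was smaller than that of Cd9 in 88.5% of them and smaller than that of Izumo1r in 70.0%. Without cKO MII replicate 3, Cd9 was still called higher in cKO eggs (log2 fold change 1.39, limma adjusted p = 0.0167), and so was Izumo1r (0.82, adjusted p = 0.0297).

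**Figure D3:**
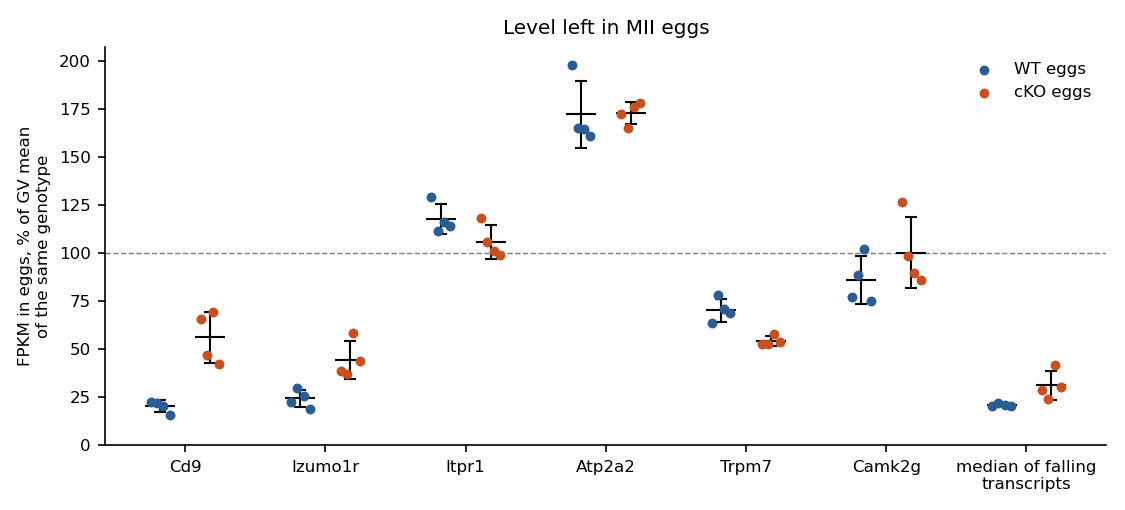
FPKM in each egg library as a percentage of the mean GV level of the same genotype, with the mean and SD of 4 libraries, and at the right the median over 1918 transcripts that fall in WT. Cd9 and Izumo1r sit near 20 to 24% in WT eggs and 44 to 56% in cKO eggs, while the falling transcripts have a mean of 20.9% in WT and 31.1% in cKO. The dashed line marks 100%.

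Trpm7 fell by 0.51 in WT (limma adjusted p = 7.61e-04), near the median transcript, and by 0.88 in cKO (adjusted p = 5.56e-05). After rescaling, the WT change was -0.06 and was not called (adjusted p = 0.621), whereas the cKO change was -0.46 (adjusted p = 0.00376). The difference between the genotypes was not past the threshold (interaction -0.37 ± 0.13 SE, adjusted p = 0.148). Atp2a2 was the 1 gene of the 6 called higher in eggs. It rose by 0.79 in WT (adjusted p = 6.93e-05) and 0.80 in cKO (adjusted p = 1.32e-04), that is to 172% ± 17.4 and 173% ± 5.53 of the GV level, and the genotypes differed by 0.01 (interaction, 95% interval -0.33 to 0.35, adjusted p = 0.983).

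Itpr1 was at 4.81, 4.92, 4.97 and 4.41 FPKM in WT GV oocytes, below all 4 WT egg libraries, with a log2 fold change of 0.24 (limma adjusted p = 0.0679). In cKO GV oocytes it was at 4.08, 4.55, 4.86 and 5.48 FPKM, which overlap the cKO eggs (0.09, adjusted p = 0.549). Camk2g was at 45.6, 43.8, 39.1 and 43.7 FPKM in WT GV oocytes and 41.6, 44.4, 41.8 and 52.1 FPKM in cKO GV oocytes. It changed by -0.23 in WT (adjusted p = 0.0762) and -0.01 in cKO (adjusted p = 0.963). After the rescaling Itpr1 was called higher in both genotypes (0.69, adjusted p = 2.33e-04, and 0.51, adjusted p = 0.00614), and Camk2g turned to 0.23 in WT (adjusted p = 0.0549) and 0.41 in cKO (adjusted p = 0.0184).

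Cd81 and Cacna1h were too low to be tested. Cd81, the partner tetraspanin of Cd9, was at 0.045 to 0.547 FPKM over the 16 libraries, an estimated 1 to 13 fragments per library, with overlap between all groups. Cacna1h, the T-type channel, was at 0.409 to 0.662 FPKM in WT GV oocytes and 0.425 to 0.643 FPKM in cKO GV oocytes. Its egg libraries held 0.205, 0.182, 0.076 and 0.266 FPKM in WT and 0.255, 0.331, 0.395 and 0.230 FPKM in cKO. In both genotypes every egg library was below every GV library, while egg genotypes overlapped, on an estimated 9 to 84 fragments per library.

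Among paralogs, 1 gene held most of the family's summed FPKM in each of the 7 families, as group means. Atp2a2 held 99.8 to 99.9% of the summed FPKM of Atp2a1, Atp2a2 and Atp2a3 as group means, and Camk2g held 99.6 to 99.7% of the 4 Camk2 genes. Izumo1r held 99.7 to 99.8% of the folate receptor family measured here (Folr1, Folr2 and Izumo1r), and Cd9 held 99.7 to 99.9% of Cd9 plus Cd81. Itpr1 shared its family with Itpr2, and its mean share was 61.7% in WT GV oocytes, 57.8% in cKO GV oocytes, 55.8% in WT eggs and 56.2% in cKO eggs, with overlapping values. Cacna1h held 64.1 to 76.7% of 3 T-type genes, all of which were low.

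The share of Trpm7 in its sum with its close relative Trpm6 was lower in the cKO libraries, as a description. The share of Trpm7 was 88.9% ± 1.58 in WT GV oocytes and 84.2% ± 1.86 in cKO GV oocytes (SD, n = 4), with the highest cKO library (86.8%) just below the lowest WT library (86.9%). The egg libraries had shares of 88.5%, 85.8%, 87.5% and 89.8% in WT against 76.1%, 78.2%, 80.2% and 75.1% in cKO, without overlap. Trpm6 itself was at 0.895, 1.40, 1.10 and 0.839 FPKM in WT eggs and 1.65, 1.48, 1.43 and 1.78 FPKM in cKO eggs. It did not pass the test (log2 fold change of FPKM floored at 1, 0.50 ± 0.16 SE, limma adjusted p = 0.0763). Trpm6 was not called in GV oocytes either (0.48 ± 0.15 SE, limma adjusted p = 0.281), and its levels lie near the floor. The shares were not tested.

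**Figure D4:**
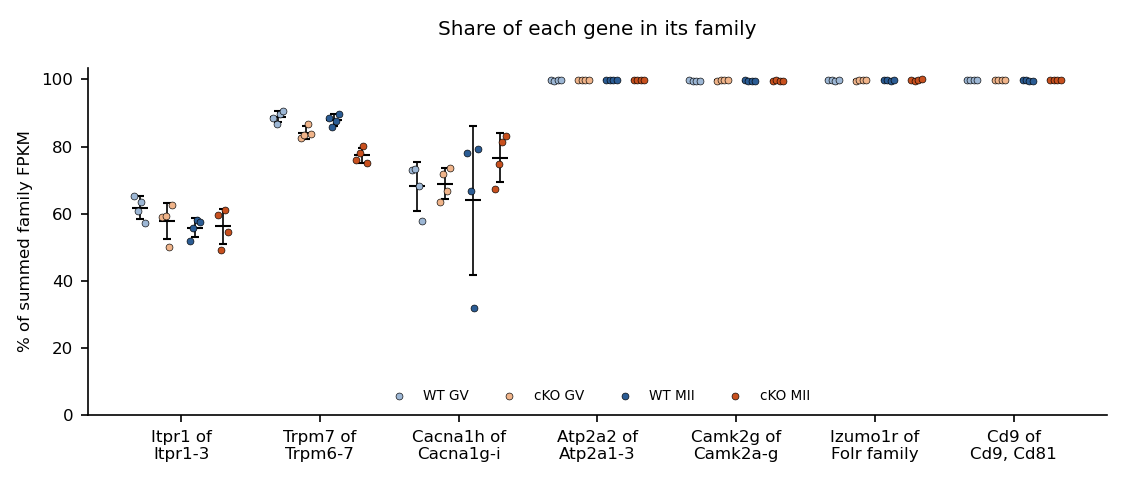
Percentage of a paralog family's summed FPKM held by each gene, with a point per library and the mean and SD of 4 libraries per group. The Atp2a2, Camk2g, Izumo1r and Cd9 shares lie near 100%, whereas the Trpm7 share is lower in all 4 cKO egg libraries (75.1 to 80.2%) than in all 4 WT egg libraries (85.8 to 89.8%).

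The surrounding pathways were read from 4 gene lists. In GV oocytes no gene of any list was called (0 of 11 membrane partners and paralogs, 0 of 16 calcium channels, pumps and store proteins, 0 of 15 decoding genes and 0 of 9 cortical granule genes tested, limma). In eggs, 2 of 15 calcium handling genes were higher in the cKO, namely Calr, the calcium-binding chaperone of the endoplasmic reticulum, and Smdt1, a regulator of the mitochondrial calcium uniporter. Of 13 decoding genes 1 was higher, Calm2, which encodes calmodulin. No gene of the 9 membrane or 10 cortical granule genes was called, and none of any list was called lower. Of all transcripts tested in eggs, 6.53% were called higher and 1.49% lower, and nothing is read from these list counts beside those shares. The list medians were -0.03 for membrane genes, -0.04 for calcium handling, 0.00 for decoding and -0.01 for cortical granule genes.

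Calr was at 34.3, 38.3, 38.6 and 32.3 FPKM in WT eggs and 63.0, 49.0, 52.1 and 42.2 FPKM in cKO eggs (log2 fold change 0.51 ± 0.12 SE, limma adjusted p = 0.0399). Smdt1 was at 9.13 to 13.0 FPKM in WT eggs and 15.5 to 29.6 FPKM in cKO eggs (0.95 ± 0.19 SE, adjusted p = 0.0310). Calm2 was at 136, 105, 93.1 and 83.1 FPKM in WT eggs and 281, 212, 243 and 137 FPKM in cKO eggs (1.04 ± 0.22 SE, adjusted p = 0.0333). None of the 3 overlapped between egg genotypes, although the lowest Calm2 library of the cKO was only just above the highest of WT. Each of these calls was lost without any 1 of the 4 WT MII libraries and without cKO MII replicate 1, at adjusted p of 0.0505 to 0.114, and those of Calr and Calm2 also without cKO MII replicate 3 (0.0729 and 0.0608). Calm2 was also called in the interaction (1.29 ± 0.27 SE, adjusted p = 0.0324), a call lost in 7 of 16 fits with a library left out.

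**Figure D5:**
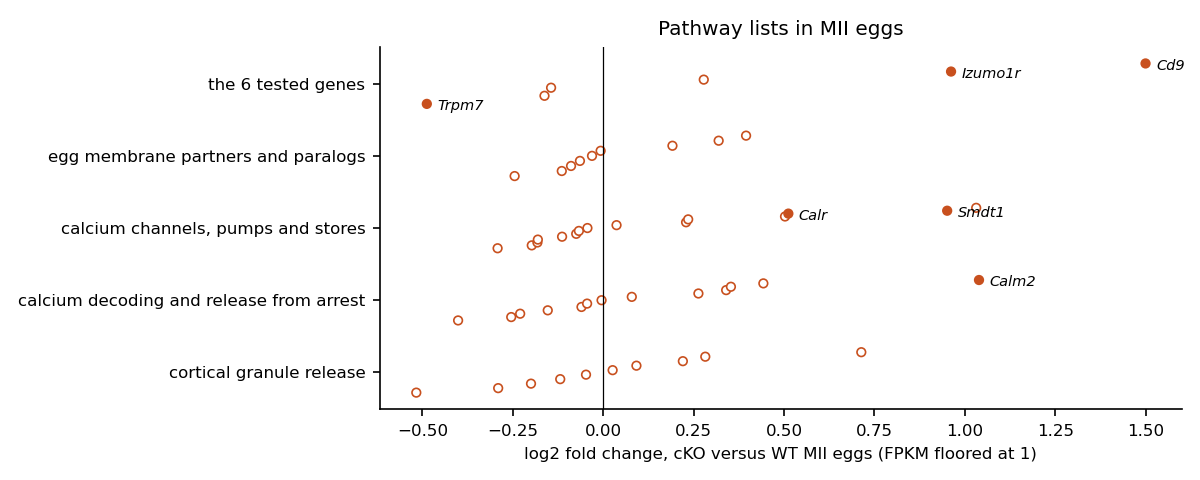
Log2 fold change in cKO versus WT eggs of each gene tested in the 4 pathway lists, with the 6 genes of interest at the top. Filled and named points passed an adjusted p of 0.05 (limma). Most genes of every list lie within 0.5 of 0, and Cd9 lies farthest to the right at 1.50.

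During maturation genes of all 4 lists were called in both directions. Of all transcripts tested, 26.1% were called higher and 52.4% lower in WT eggs, and 23.0% higher and 51.0% lower in cKO eggs. The lists hold 9 to 15 tested genes each, and from counts this small no list is read as standing apart from those shares. Under the rescaling no list gene called on both scales turned direction, but 6 calls were lost with a change of sign. In WT these were Pdia3 (log2 fold change -0.29, 0.16 rescaled), Wee2 (-0.35, 0.11 rescaled), Itgb1 (-0.34, 0.11 rescaled) and Plcb1 (-0.45, 0.01 rescaled), and in cKO Wee2 (-0.32, 0.10 rescaled) and Rph3a (-0.38, 0.04 rescaled). Further WT calls were lost without a change of sign, among them Nsf (-0.25 rescaled), Rab3a (-0.26), Smdt1 (-0.41), Calm3 (-0.44) and Tspan8 (-0.39). Their limma adjusted p after rescaling lay between 0.0588 (Smdt1) and 0.292 (Rab3a). In WT, 3 of 11 membrane genes rose and 5 fell. Itga6, an integrin of the egg surface (1.15), and Pgap1, which remodels GPI anchors (1.21), rose with Itga9 (0.80), while Gpaa1, a subunit of the GPI transamidase that attaches such anchors, fell by 2.96 on the log2 scale, with Cd151 (-1.60) and Tspan3 (-1.56). In cKO, 3 of 11 rose and 6 fell, with Pgap1 at 1.15, Itga6 at 0.95, Itga9 at 0.71, Gpaa1 at -2.60, Tspan3 at -1.73 and Cd151 at -1.61. Egg levels of Cd151 lay around or below the 1 FPKM floor, with means of 0.688 FPKM in WT and 0.988 FPKM in cKO. The lowest WT egg library of Gpaa1 held 0.222 FPKM. The floor shortens these falls.

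Of the calcium handling genes, 5 of 14 rose and 6 fell in WT, and 3 of 15 rose and 8 fell in cKO. Orai1, the plasma membrane channel opened when the store empties, went from 77.8 FPKM ± 12.7 to 2.86 FPKM ± 0.493 in WT (log2 fold change -4.77, limma adjusted p = 1e-09). In cKO it went from 82.0 FPKM ± 9.04 to 3.91, 2.91, 13.3 and 7.43 FPKM (-3.82, adjusted p = 3.21e-05). The next lowest were Calr and Micu2 at -2.38 and -0.95 in WT and -1.85 and -1.02 in cKO. Mcu, the uniporter pore, was the highest in both genotypes (0.87 in WT, 0.80 in cKO), with Atp2b1 (0.73 and 0.56), a calcium pump of the plasma membrane. Itpr2 (0.69) completed the 3 highest in WT, and Erp44 (0.69), a chaperone that binds ITPR1, those in cKO.

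Of 14 decoding genes, 4 rose and 8 fell in WT, and 3 rose and 6 fell in cKO. Ppp3ca (0.86 and 0.65) and Ppp3r1 (0.60 and 0.71), subunits of the calcium-dependent phosphatase calcineurin, rose in WT and cKO, and Ppp3cb rose by 0.63 in WT. Ppp3cc, another calcineurin subunit, fell by 2.96 on the log2 scale in WT and 2.61 in cKO. Prkcd (-1.84 and -2.05), a protein kinase C, fell in both, joined among the lowest by Plk1 in WT (-1.78) and Plcg2 in cKO (-1.91). All egg libraries of Prkcd lay below the 1 FPKM floor, at 0.223 to 0.409 FPKM in WT and 0.458 to 0.633 FPKM in cKO. Its fold changes thus compare the GV level with the floor, and their order between genotypes is not read. Of the cortical granule genes, 5 of 10 rose and 3 fell in WT, and 4 of 9 rose and 4 fell in cKO. Vamp3 (0.99 and 1.17) rose in both, with Marcks (0.76) and Sytl4 (0.53) in WT and Snap23 (0.46) and Sytl4 (0.32) in cKO. Marcks was below the floor in all WT GV libraries (0.512 to 0.659 FPKM), which shortens its rise. Napa (-2.63 and -1.89), Nsf (-0.70 and -0.98) and Rab3a (-0.71 and -0.50), which act in vesicle fusion, fell in both. The WT calls of Nsf and Rab3a were lost under the rescaling.

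Transcripts with patterns closest to each gene were sought over the 16 libraries by Pearson correlation of log2 FPKM among 7827 transcripts. The points share their libraries and fall into 2 stages, so r is a description. Cd9 was closest to Snrpa (r = 0.980) and Chchd2 (r = 0.979), and its r with Izumo1r was 0.937. Chchd2 was at mean levels of 198 and 199 FPKM in WT and cKO GV oocytes, 20.7 FPKM in WT eggs and 85.8 FPKM in cKO eggs. Izumo1r was closest to Rps3 (r = 0.991) and Rps9 (r = 0.989), which encode ribosomal proteins. Atp2a2 was closest to Trip12 (r = 0.988) and Cnot6l (r = 0.986), and Trpm7 to Gm40228 (r = 0.944) and Tmem245 (r = 0.943). Camk2g was closest to Rela (r = 0.884) and Cby1 (r = 0.853), and Itpr1 was close to Elavl3 (r = 0.801).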

How the data were processed

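Smart-seq2 cDNA, primed with oligo-dT, was made from GV oocytes and MII eggs of both genotypes, and the 16 libraries fall into 4 groups of 4 by their labels. The deposited values are FPKM from the authors, and the submitters' processing notes name TopHat2 2.1.1, Cufflinks 2.2.1 and mm10. The annotation is not given in the sources used here. The labels and the study's methods give different pool sizes. FPKM carry no counts. Depth was estimated from the steps between low values (below 0.6 FPKM), and a table row with an ERCC name was not found.

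Values under 1 FPKM were set to 1, as in the study, and log2 values were fitted with limma 3.58.1 in R 4.3.3 with an intensity trend. Entries averaging 1 FPKM or more in the libraries fitted were tested, with a Benjamini-Hochberg adjusted p of 0.05 over all of them. Each contrast used its own 2 groups, and the interaction all 16 libraries. Of the 8 genes, 6 were tested. In simulated data for the GV comparison, 199 of 200 changed transcripts were recovered among 20651, with 11 false calls. For the MII comparison 200 of 200 were recovered among 19785, with 12 false calls. The measured comparisons tested fewer transcripts, 11062 in GV oocytes and 9492 in eggs. Recovery at the fold changes of the genes reported here was not tested. Python 3.11.15 was used otherwise. Gene positions came from GENCODE M21 and promoters from RefSeq (GRCm38.p6).

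The genes and lists were chosen with earlier results of these data known, so no p was adjusted over a list and no set test was made. Named genes are the 8 genes, Psma7, paralogs, the 2 transcripts nearest in pattern to each tested gene, list genes past the threshold between genotypes or in the interaction, and the 3 highest and 3 lowest past it in each maturation comparison. A few items that this rule names are not reported here. The alternatives tried were median-ratio rescaling, a 0.1 FPKM floor, adding 1 FPKM in place of the floor, no filter or a mean of 5 FPKM, no trend, a replicate block, all 16 libraries in 1 fit, entries summed per gene name, and each library left out. Correlations of same-numbered deviations ran from -0.496 to 0.285. Differently numbered libraries were not correlated for reference, so whether replicate numbers pair the libraries was not settled.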

Additional observations from a re-analysis of the deposited data

Results flagged for a closer look

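The genotype effect on Cd9 differed between stages, by 1.46 on the log2 scale (interaction, limma adjusted p = 0.0184), with 0.04 in GV oocytes and 1.50 in eggs.

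In 3 of 32 groups tested, a library stood apart from the other 3 of its group by Dixon's criterion, and chance flags about 1 in 20 groups. Atp2a2 was at 54.5 FPKM in WT GV replicate 3, where the gap was 0.881 of the group's range. Atp2a2 was at 88.3 FPKM in WT MII replicate 1, with a gap of 0.891 of the range. Trpm7 was at 10.2 FPKM in WT GV replicate 2, with a gap of 0.897 of the range. Atp2a2 was not called between genotypes at either stage, nor Trpm7 in GV oocytes, with or without those libraries.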

How the results depend on the processing

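The 1 FPKM floor and the filter kept Cd81 and Cacna1h out of the tests, since both stayed under 1 FPKM in every library and the floor then leaves no variation, also without the filter. Of 520 log2 fold changes under an alternative, for genes called or not in the main fit, 479 kept direction and side of the threshold. Another 9 passed it newly in the same direction, 13 no longer passed it and 19 turned direction, none of them called before. Among those that turned, Camk2g in cKO maturation became called under rescaling (0.41, limma adjusted p = 0.0184). With a library left out, the calls between egg genotypes held in 7 of 8 fits for Cd9, 5 for Izumo1r and 2 for Trpm7. A replicate block was also fitted, though whether the numbers pair the libraries was not settled. It left 1 gene higher (Cd9, limma adjusted p = 0.0260) and 0 lower between egg genotypes, against 2 and 1. Izumo1r and Trpm7 then missed at 0.0515 and 0.0730. Calr (0.0636) and Smdt1 (0.0627) missed too. Over all transcripts the block left 101 higher and 7 lower in eggs, against 620 and 141, and the cause was not tested. Rescaling gave 497 higher and 259 lower, a fit on all 16 libraries 1278 and 220, and no trend 415 and 86. Genes called higher in maturation became 2 in WT under rescaling or without the trend and 3 in cKO under rescaling, and those called in the interaction became 2 with a mean of 5 FPKM.

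With a library left out, genes called between egg genotypes ranged from 0 to 2 higher and 0 to 1 lower, those higher in WT maturation from 1 to 2 and in the interaction from 1 to 2. Values that turned ranged, with a library left out, between GV genotypes, from -0.10 to 0.15 for Cd9, -0.088 to 0.054 for Itpr1 and -0.014 to 0.094 for Camk2g, for Camk2g in cKO maturation from -0.127 to 0.066, and for Atp2a2 in the interaction from -0.091 to 0.088. Rescaling turned Camk2g to 0.23 in WT and 0.41 in cKO maturation and Atp2a2 to -0.053 in the interaction. Rescaled percentages of the GV level in WT and cKO eggs were 27.8% and 73.4% for Cd9, 33.4% and 58.1% for Izumo1r, 162% and 140% for Itpr1, 237% and 229% for Atp2a2, 97.0% and 71.7% for Trpm7 and 119% and 132% for Camk2g. For Atp2a2 in cKO they ranged from 165% to 183% with a library left out. Entries summed per name gave Itpr1 57.9% of its family in WT GV oocytes.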
